A study of Gallus gallus with 5 samples.

Results

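The protein phosphatase genes of DT40, a chicken line grown from a B-cell lymphoma, were followed in RNA-seq libraries made with and without doxycycline. Members were the features whose RefSeq accession, taken without its version, maps to a gene symbol that begins with DUSP, PTPN, PTPR or PPP1 to PPP6. The rule found 63 genes among 16143 features, of which 8699 had a symbol. They fall into 13 dual-specificity phosphatase genes, 16 protein tyrosine phosphatase genes, 6 genes of serine/threonine catalytic subunits and 28 genes of serine/threonine regulatory subunits. A further 52 symbols of this kind in the reference table, PPP1CA, DUSP3 and PTPRA among them, matched no row and were not analysed here.

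Every library came from DT40 cells described as CAP-H KO, in which doxycycline sets the state of CAP-H, the kleisin subunit of the condensin I complex. The -dox group holds 3 libraries without doxycycline (replicates 1, 2 and 3), with the genotype label CAP-H on. The +dox group holds 2 libraries from cells given doxycycline at 100 ng/ml (replicates 1 and 3), with the genotype label CAP-H off. The labels give 36 h with or without the drug. No library had doxycycline with CAP-H on, so effects of the drug and of the CAP-H state cannot be told apart. Neither the clone nor the promoter of the CAP-H construct is named in the labels, and whether replicates were separate cultures is not stated, so the p-values rest on differences among these 5 libraries that may be technical.

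Protein phosphatases remove the phosphate groups that kinases add. The dual-specificity enzymes act on both tyrosine and serine or threonine, and those called MAP kinase phosphatases switch off ERK, JNK and p38. The classical tyrosine phosphatases are either cytoplasmic (PTPN) or span the membrane (PTPR), and in B cells they set the activity of the Src-family kinases and of JAK-STAT signalling. The serine/threonine enzymes PP1, PP2A, calcineurin, PP4 and PP6 have few catalytic subunits, and their many regulatory subunits choose the substrate and the place of action.

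Total counts ran from 12199522 to 22533003 per library, and 10079 features passed the filter on low counts and were tested. No row (0) matched NCAPH, the gene of CAP-H, so the labels could not be checked by the targeted gene. Of the 12 B-cell markers with a row, 9 stood at 5 CPM (counts scaled to a common library size) or more in the -dox group, among them CD79B at 203 ± 9.79 CPM and EBF1 at 122 ± 17.8 CPM (mean ± SD, n = 3). The summed level of these B-cell markers was 1603 to 1647 CPM in the -dox libraries and 1252 to 1309.8 CPM in the +dox libraries. Levels below are CPM after TMM scaling, log2 fold changes are +dox minus -dox, and adjusted p-values are Benjamini-Hochberg values over all 10079 features from the quasi-likelihood test of edgeR. "Rose" and "fell" refer to genes with an adjusted p under 0.05, and a fall in bulk RNA can mean less RNA per cell or fewer cells with that RNA, which cannot be told apart.

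Of the 63 members, 48 were tested. Among these, 8 rose, 19 fell and 21 did not pass, so 27 (56.25%) were called, against 46.3% of all tested features. Rises made up 16.7% of the tested members, against 22.6% of all features, and falls 39.6%, against 23.7%. The groups did not overlap in 37 tested members, or 77.1%, against 64.9% of all features. The median log2 fold change was -0.10 for the tested members and 0.00068 for all features.

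Of 10 tested dual-specificity genes 2 rose and 0 fell in edgeR's test, and 0 were lower at an unadjusted p under 0.05, by DESeq2 or by edgeR's exact test. Tyrosine phosphatase genes rose in 4 and fell in 6 of 12 cases. Among the 6 catalytic subunit genes 1 rose and 3 fell, and among 20 tested regulatory subunit genes 1 rose and 10 fell. The shares called were 20%, 83.3%, 66.7% and 55% in this order of classes, against 46.3% of all tested features. Rises made up 20%, 33.3%, 16.7% and 5%, against 22.6%, and falls 0%, 50%, 50% and 50%, against 23.7%. The classes were not alike in level, with median -dox levels of 2.33, 111, 129 and 117 CPM for their tested genes in that order. Among all features at a mean of 20 CPM or more over the 5 libraries, 57.2% were called, 26.7% rose and 30.5% fell. The medians of the log2 fold changes were 0.27, -0.09, -0.20 and -0.16 in the same order. Whether the 4 classes differ from each other was not tested. When counts were scaled by library size alone, which shifts the median of all features by -0.18, the members split into 2 rises (DUSP23 and PTPRR) and 27 falls, and over all features the share of calls that were rises went from 48.9% to 23.6%. The rises of the other 6 members hold only relative to the typical feature.

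**Figure D1:**
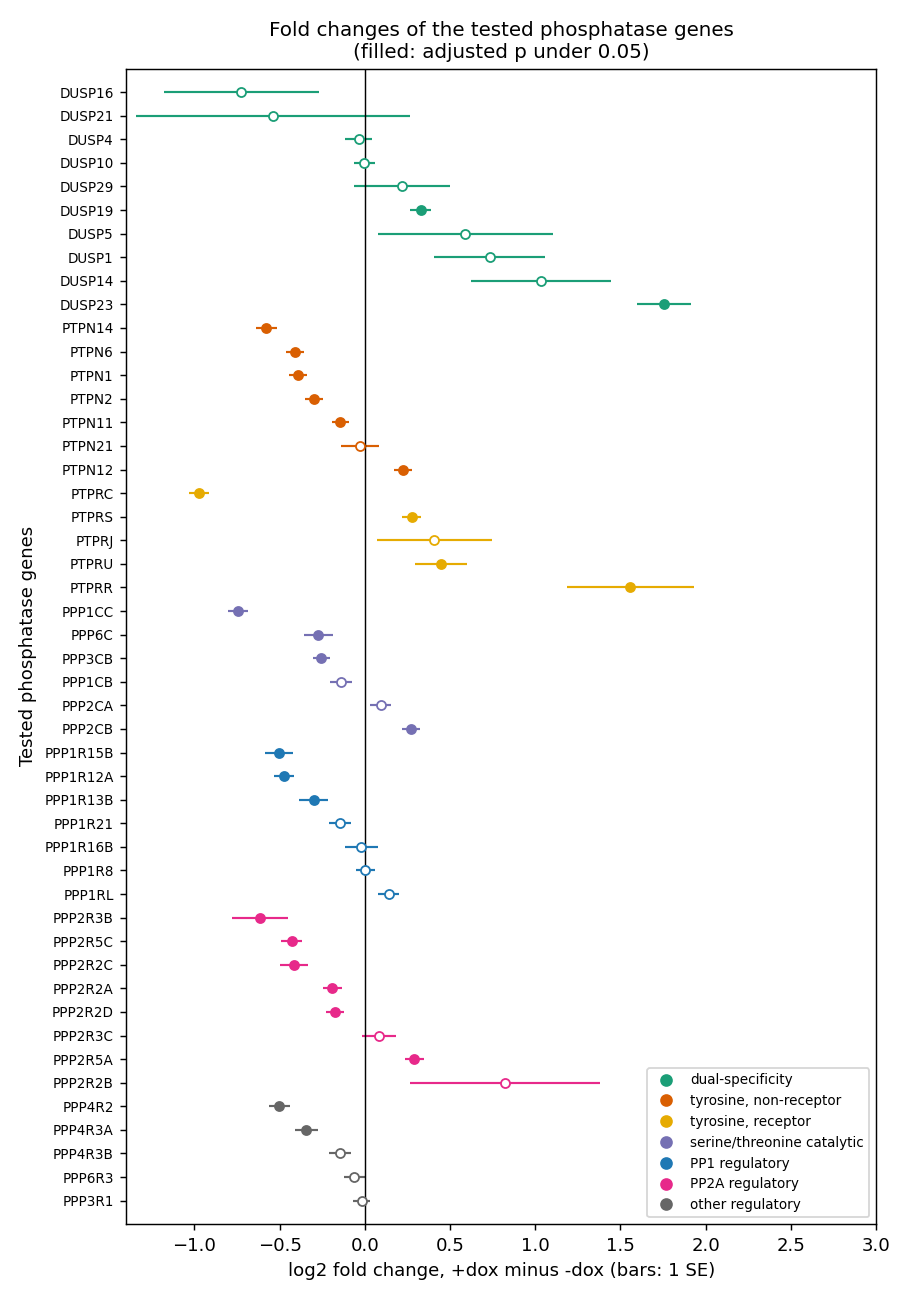
Log2 fold changes of the 48 tested phosphatase genes (x axis, +dox minus -dox, with bars of 1 SE), ordered by class on the y axis; filled points passed at an adjusted p under 0.05. DUSP23 and PTPRR lie farthest to the right at 1.75 and 1.56, and PTPRC and PPP1CC farthest to the left among filled points at -0.97 and -0.74.

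The calls were also counted by level. At a mean of 20 CPM or more over the 5 libraries stood 36 members, of which 5 rose and 18 fell, so 63.9% were called, against 57.2% of all features of that level. Among those features 26.7% rose and 30.5% fell, and among the members 13.9% and 50%. Below 20 CPM there were 27 members, 15 of them not tested, and of the 12 tested ones 3 rose and 1 fell. Of all 10079 tested features 2281 rose and 2387 fell, and 1713 of these rises and 1962 of these falls were at 20 CPM or more. Below that level rises thus outnumbered falls among all features as well. Calls with a fold change of at least 2 were found in 2 members, DUSP23 and PTPRR, both of which rose from under 10 CPM, and such calls made up 6.18% of all tested features. DUSP14 had a fold of 2.05 but did not pass.

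**Figure D2:**
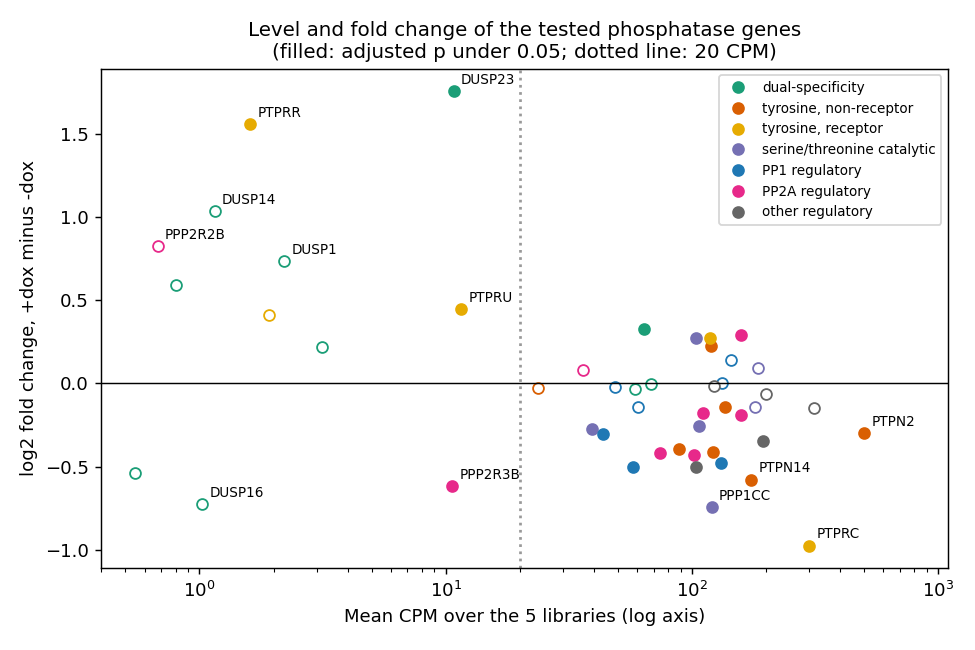
Mean CPM over the 5 libraries (x axis, log scale) against the log2 fold change, +dox minus -dox (y axis), for the 48 tested phosphatase genes, coloured by class and filled where the adjusted p was under 0.05. The 36 genes right of the dotted line at 20 CPM lie between -0.97 and 0.33, and DUSP23 and PTPRR lie above 1.5 to its left.

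At baseline, without doxycycline, the dual-specificity class was mostly low. Only 3 of its 13 genes stood at 20 CPM or more, namely DUSP10 at 68.05 ± 1.43 CPM, DUSP4 at 59.3 ± 3.64 CPM and DUSP19 at 58.1 ± 1.36 CPM (SD, n = 3). Per kb of genomic span, the length the files give, introns included, the order was DUSP19 (8.99 CPM per kb), DUSP4 (6.73) and DUSP10 (3.06). DUSP4 encodes a nuclear MAP kinase phosphatase, DUSP10 one directed at JNK and p38, and DUSP19 is a small atypical enzyme linked to JNK signalling. DUSP6, the cytoplasmic ERK phosphatase, and DUSP8 were listed at the smallest value of the files, a count of 1, in all 5 libraries.

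DUSP23 showed the largest change of all tested members. It encodes a small atypical dual-specificity phosphatase that lacks the MAP kinase-binding domain of the classical MAP kinase phosphatases (galGal4 chromosome 25, 1678307 to 1680960). It stood at 5.35, 6.28 and 4.96 CPM in the -dox libraries and 19.1 and 18.3 CPM in the +dox libraries. Both +dox libraries lie above all -dox libraries, and replicates within a group differ little beside the gap. Mean levels went from 5.53 ± 0.682 to 18.7 ± 0.528 CPM (log2 fold change of 1.75 with an SE of 0.16 and adjusted p = 2.2e-07), a 3.37-fold rise, and the call held in all 15 alternatives tried. The nearest tested features are XM_423214.3, 1.499 kb after it (0.07, adjusted p = 0.85), and APH1A, 105.0 kb before it (0.06, adjusted p = 0.73), and neither passed.

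DUSP19 rose modestly, from 58.1 ± 1.36 to 72.9 ± 2.37 CPM (0.33, SE 0.06, adjusted p = 0.00049). Its libraries read 59.1, 56.5 and 58.6 CPM without and 74.5 and 71.2 CPM with doxycycline, and the groups do not overlap. Of its neighbours XM_001232274.2, 13.3 kb after it, rose (0.29, adjusted p = 0.0089) and XM_421854.3, 0.227 kb before it, did not pass (0.02, adjusted p = 0.89). With library size alone the call was lost (0.14, adjusted p = 0.071). DUSP10 and DUSP4, the other members of the class at this level, did not pass: DUSP10 stood at 68, 69.5 and 66.6 CPM without and 66.4 and 69.5 CPM with doxycycline, and DUSP4 at 61.6, 61.1 and 55.1 CPM without and 53.3 and 62.9 CPM with doxycycline. Their log2 fold changes were -0.00 (SE 0.06, adjusted p = 0.97) and -0.04 (SE 0.08, adjusted p = 0.74), and with library size alone both were called lower (-0.19, adjusted p = 0.019 and -0.22, adjusted p = 0.031).

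Genes of the immediate-early MAP kinase phosphatase DUSP1 and of DUSP14 stood at a few CPM at most. DUSP1 was at 1.77, 2.12 and 1.32 CPM without and 3.204 and 2.62 CPM with doxycycline, and DUSP14 at 1.02, 0.546 and 0.826 CPM without and 1.602 and 1.78 CPM with doxycycline. In both, the +dox libraries were the higher ones without overlap, but neither passed (DUSP1 0.73, SE 0.32, adjusted p = 0.077; DUSP14 1.03, SE 0.41, adjusted p = 0.052). By edgeR's exact test both passed as higher (0.73, adjusted p = 0.042 and 1.03, adjusted p = 0.019), and DUSP14 also passed with upper quartile scaling, with a filter at a mean of 1 CPM (1.04, adjusted p = 0.042) and without -dox replicate 1 (1.31, adjusted p = 0.033). DUSP1 overlaps a microRNA gene, MIR3523, and how reads in the overlap were assigned is not given.

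The remaining dual-specificity genes had at most 80 counts in any library. DUSP16, a JNK and p38 phosphatase, had a log2 fold change of -0.73 (SE 0.46), DUSP5, a nuclear ERK phosphatase, 0.59 (SE 0.51), DUSP29 0.22 (SE 0.28) and DUSP21 -0.54 (SE 0.80), and none of these 4 passed. Leaving out 1 library at a time gave 0.0019 to 1.04 for DUSP5, 0.070 to 0.40 for DUSP29, -0.87 to -0.51 for DUSP16 and -2.83 to 0.36 for DUSP21. Counts of DUSP26 were 1, 2 and 1 in the -dox libraries and 6 and 4 in the +dox libraries, too low for the filter. It was called higher when no filter was used, and the authors' deposited table lists it with a log2 fold change of 2.69; it overlaps the unnamed feature XM_424531.3.

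**Figure D3:**
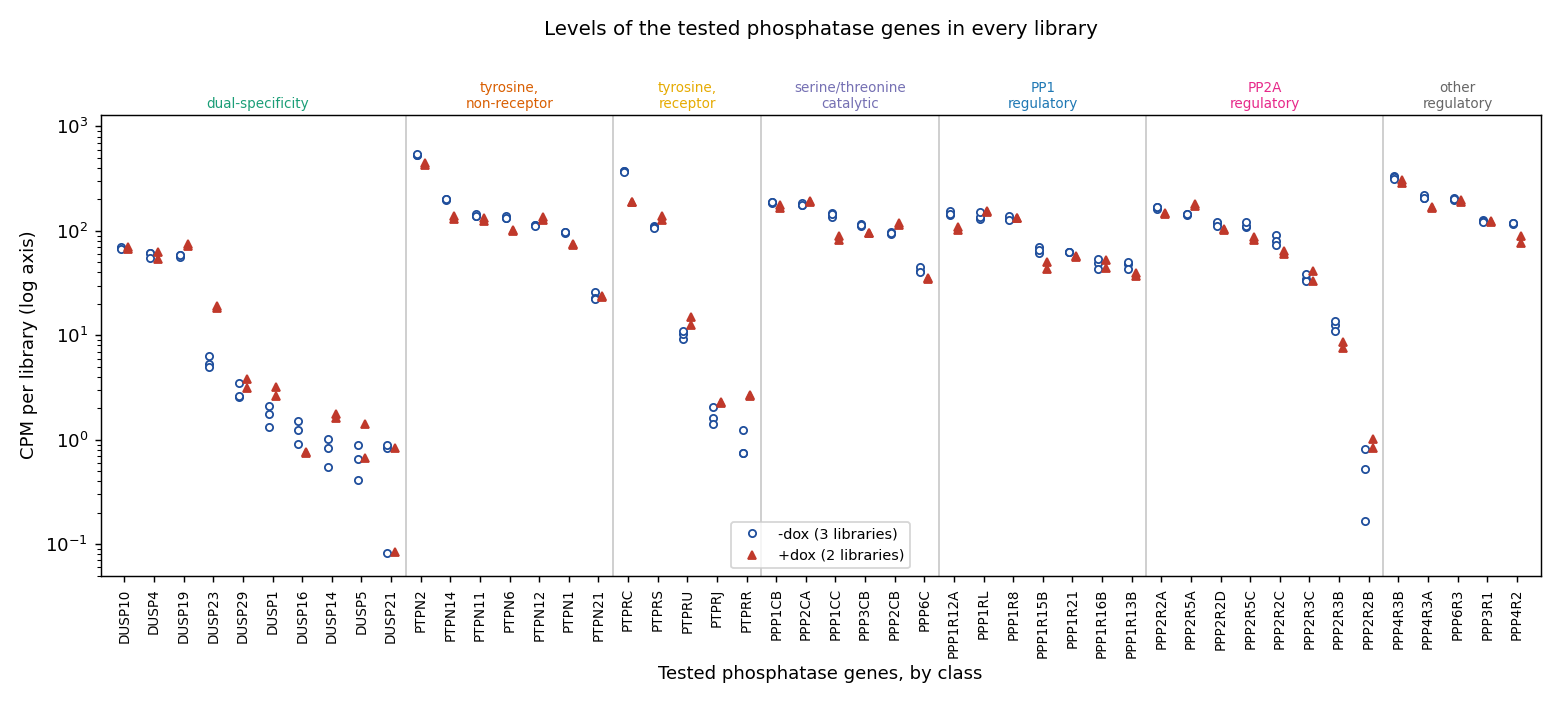
CPM in each library (y axis, log scale) for the 48 tested phosphatase genes (x axis, grouped by class and ordered by -dox level), with open circles for the 3 -dox and triangles for the 2 +dox libraries. The +dox triangles of DUSP23 sit between 18.3 and 19.1 CPM, above the -dox circles at 4.96 to 6.28, and those of PTPRC at 188.7 and 190.3, below circles at 369 to 376.

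The tyrosine phosphatase genes included the most abundant member by counts. PTPN2, which encodes the T-cell phosphatase that acts on JAK kinases and STATs, stood at 541 ± 5.73 CPM at baseline, and at 15.9 CPM per kb of span it was also the highest of its class. PTPN6 (14.3 CPM per kb) and PTPN11 (6.61) followed, and the gap between each of these neighbours exceeded the spread over the 3 libraries. That order rests on span, and PTPN14, at 201 CPM at baseline, had a higher CPM than PTPN6 or PTPN11. Among receptor types PTPRC was the highest at 6.48 CPM per kb, ahead of PTPRS (1.26) and PTPRU (0.231). PTPRZ1 was listed at a count of 1 in all 5 libraries, and PTPN3, PTPN22 and PTPRO were too low to be tested.

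PTPRC fell furthest of all tested members. It encodes CD45, the leukocyte receptor phosphatase that keeps Src-family kinases ready for antigen receptor signalling (galGal4 chromosome 8, 2019147 to 2076591). Its libraries read 376, 372 and 369 CPM in the -dox libraries and 189 and 190.3 CPM in the +dox libraries. Replicates differ by a few CPM while the groups differ about as much as the whole +dox level, with no overlap. Mean levels went from 372 ± 3.67 to 189.5 ± 1.11 CPM (log2 fold change of -0.97 with an SE of 0.06 and adjusted p = 4.0e-09), which is 1.96-fold lower in +dox, and the call held under all 15 alternatives. Among the B-cell markers, LYN (-0.40, SE 0.06, adjusted p = 7.4e-05) and IKZF1 (-1.43, SE 0.06, adjusted p = 7.8e-11) fell and SYK rose (0.25, SE 0.05, adjusted p = 0.0014), with 1 rise and 6 falls among the 11 tested B-cell markers (63.6% called and 54.5% lower, against 46.3% and 23.7% of all features). Most of these markers stand at 20 CPM or more, where 57.2% of all features were called and 30.5% were lower.

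Some markers of other cell types moved in the direction of PTPRC. Of 9 macrophage and granulocyte markers with a row, 7 were tested and 4 fell, namely MMP9, MPEG1, CTSS and CYBB, while 0 rose by edgeR's quasi-likelihood or exact test, by DESeq2 or at an unadjusted p under 0.05. Their summed level was 178 to 191 CPM in the -dox libraries and 130.3 to 130.4 CPM in the +dox libraries, and CD14 and MARCO were at the smallest value of the files in all 5 libraries. Of the 7 tested macrophage and granulocyte markers 57.1% were called, all of them lower, against 46.3% called and 23.7% lower among all features. SPI1, the most abundant of these markers at 101 CPM in the -dox group, did not pass (-0.13, SE 0.05, adjusted p = 0.060). Nor did TLR4 (-0.80, SE 0.38, adjusted p = 0.099) or LYZ (0.74, SE 0.44, adjusted p = 0.19). LYZ went the other way, from a mean of 1.09 CPM in -dox to 1.88 CPM in +dox, without overlap of the groups. Of 4 tested T-cell markers 1 fell, or 25.0% (CD5, which overlaps VPS37C), with a summed level of 138 to 152 CPM in the -dox libraries and 129.9 to 132 CPM in the +dox libraries. CD3D, the most abundant T-cell marker, was higher in both +dox libraries, with means of 91.7 CPM in -dox and 99.7 CPM in +dox. It did not pass (0.13, SE 0.06, adjusted p = 0.10). The single tested fibroblast marker, COL1A2, did not pass, with DCN and THY1 at the smallest value and a summed level of 30.6 to 35.8 CPM in the -dox libraries and 32.8 to 35.1 CPM in the +dox libraries. The part of these other markers in the change of PTPRC was not tested.

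PTPN14 fell from 201 ± 2.903 to 135 ± 5.22 CPM (log2 fold change of -0.58 with an SE of 0.06 and adjusted p = 1.9e-06). It encodes a phosphatase with a FERM domain known as a partner of the Hippo effector YAP, and its libraries read 203, 198 and 201 CPM without and 131 and 138 CPM with doxycycline. PTPN21, a FERM-domain relative, did not pass (-0.03, SE 0.11, adjusted p = 0.86). PTPN6, the phosphatase SHP-1 of inhibitory receptors on blood cells, stood at 133, 138 and 133 CPM in the -dox libraries and 100.0 and 103 CPM in the +dox libraries (log2 fold change of -0.41 with an SE of 0.05 and adjusted p = 8.4e-06). It fell although PHB2, which begins 0.109 kb after it on chromosome 1, rose (0.57, adjusted p = 2.9e-07). PTPN11, the related phosphatase SHP-2, had a smaller difference (-0.14, SE 0.05, adjusted p = 0.032) that was lost in 7 of 15 alternatives, such as without +dox replicate 3 (-0.10, adjusted p = 0.29), without +dox replicate 1 (-0.18, adjusted p = 0.054) and without -dox replicate 2 (-0.13, adjusted p = 0.081).

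PTPN1 and PTPN2, the closest relatives in the class, fell together. PTPN1, or PTP1B, which acts on the insulin receptor and on JAK2, stood at 96.5, 98.3 and 98.2 CPM without and 73.5 and 75.4 CPM with doxycycline (-0.39, SE 0.05, adjusted p = 2.4e-05). PTPN2 stood at 537, 539 and 547 CPM without and 431 and 449 CPM with doxycycline (-0.30, SE 0.05, adjusted p = 0.00029). In both genes each +dox library was below every -dox library, and both calls held under all 15 alternatives. The neighbours of PTPN2 did not fall, with PSMG2 at 0.19, adjusted p = 0.011 and SEH1L at 0.03, adjusted p = 0.74.

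PTPN12, the cytoskeletal phosphatase PTP-PEST, was the single non-receptor gene that rose. Its values were 114, 113 and 110.5 CPM without and 135 and 129 CPM with doxycycline, with a change of 0.22, SE 0.05, adjusted p = 0.0018. Its call was lost without +dox replicate 1 (0.19, adjusted p = 0.054), and also when scaled by library size only (0.04, adjusted p = 0.54).

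Of the other 4 tested receptor-type genes 3 rose. With PTPRC, 60% of the 5 tested receptor-type genes rose and 20% fell, against 22.6% and 23.7% of all features. PTPRR, which encodes a phosphatase that binds MAP kinases, had counts of 17, 18 and 9 in the -dox libraries and 31 and 29 in the +dox libraries. That is 0.751, 1.23 and 0.743 CPM without and 2.61 and 2.71 CPM with doxycycline, and despite this low level the groups were apart (log2 fold change of 1.56 with an SE of 0.37 and adjusted p = 0.0027), a 2.94-fold rise called in all 15 alternatives. PTPRS, a receptor for proteoglycans, rose from 109 ± 3.11 to 132 ± 7.697 CPM (0.27, SE 0.05, adjusted p = 0.00067), and lost the call with library size alone (0.09, adjusted p = 0.19). PTPRU stood at 9.32, 10.2 and 10.9 CPM without and 12.6 and 14.9 CPM with doxycycline (0.45, SE 0.15, adjusted p = 0.026). It overlaps the microRNA gene MIR1724, and its call was lost in 6 of 14 alternatives, including without +dox replicate 3 (0.32, adjusted p = 0.21), without -dox replicate 1 (0.38, adjusted p = 0.084) and without -dox replicate 2 (0.46, adjusted p = 0.054). PTPRJ, the receptor CD148, was at 1.696 ± 0.326 CPM at baseline and did not pass (0.41, SE 0.34, adjusted p = 0.35).

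All 6 catalytic subunit genes with a row were well expressed, from 42.4 ± 2.42 CPM for PPP6C to 188 ± 3.03 CPM for PPP1CB at baseline. Per kb of span, introns included, PPP2CA (11.6 CPM per kb), PPP6C (11.3) and PPP1CC (9.44) came first. This order depends on span as well as on RNA level, since PPP6C had the lowest CPM of the 6. The difference between PPP2CA and PPP6C is within the spread of PPP6C over the libraries. PPP2CA and PPP2CB encode near-identical proteins, and PPP1CB and PPP1CC closely similar ones, so if the counting shared reads between copies the values within each pair are uncertain.

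PPP1CC, which encodes the PP1 isoform found at kinetochores and on chromosomes late in mitosis, fell the most of this class (galGal4 chromosome 15, 5994095 to 6009306). It stood at 136, 148 and 146 CPM in the -dox libraries and 81.97 and 89.6 CPM in the +dox libraries. No library of one group reaches the other (log2 fold change of -0.74 with an SE of 0.06 and adjusted p = 6.2e-08; 1.67-fold lower in +dox), and the call held under all 15 alternatives. HVCN1, 3.44 kb before it, fell too (-0.49, adjusted p = 9.9e-06), and whether these falls are separate was not tested. PPP1CB, the isoform of myosin phosphatase, stood at 188, 185 and 191 CPM without and 176 and 165 CPM with doxycycline and did not pass (-0.14, SE 0.06, adjusted p = 0.083). It was called lower with library size alone (-0.32, adjusted p = 0.00043), without a filter on low counts (-0.18, adjusted p = 0.033) and without +dox replicate 1 (-0.19, adjusted p = 0.037).

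Of the PP2A catalytic genes PPP2CB rose, with 94.2, 98.05 and 96.05 CPM without and 113 and 119 CPM with doxycycline (0.27, SE 0.05, adjusted p = 0.00048), and PPP2CA, with 178, 186 and 179 CPM without and 195 and 191 CPM with doxycycline, did not pass (0.09, SE 0.06, adjusted p = 0.24). In both the +dox libraries were the higher ones. The unnamed feature XM_001235016.2, 0.222 kb before PPP2CB, rose by a like amount (0.31, adjusted p = 0.0002). With library size alone PPP2CB lost its call (0.09, adjusted p = 0.17) and PPP2CA turned to -0.09, adjusted p = 0.26. PPP3CB, a catalytic subunit of the calcium-dependent phosphatase calcineurin, fell from 114 ± 2.98 to 95.7 ± 0.285 CPM (-0.25, SE 0.05, adjusted p = 0.00085). PPP6C fell from 42.4 ± 2.42 to 35.1 ± 0.159 CPM (-0.27, SE 0.08, adjusted p = 0.014), a call lost without -dox replicate 2 (-0.23, adjusted p = 0.065), without +dox replicate 1 (-0.28, adjusted p = 0.054) and without +dox replicate 3 (-0.26, adjusted p = 0.064).

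Regulatory subunits of PP1 gave 3 falls and 0 rises among 7 tested genes in edgeR's test, with 1 higher at an unadjusted p under 0.05 (PPP1RL) and 0 by DESeq2 or the exact test. The share called, 42.9%, is near the 46.3% of all features. All 7 stand at 20 CPM or more, where 57.2% of all features were called. PPP1R12A encodes MYPT1, the targeting subunit that brings PP1 to myosin, and stood at 156, 143 and 144 CPM in the -dox libraries and 103 and 110.1 CPM in the +dox libraries (log2 fold change of -0.48 with an SE of 0.06 and adjusted p = 5.4e-06). PPP1R15B, whose product CReP directs PP1 to the translation factor eIF2 alpha, stood at 69.8, 61.2 and 65.7 CPM without and 42.8 and 50.2 CPM with doxycycline (-0.50, SE 0.08, adjusted p = 0.00013). Both genes were lower in each +dox library than in any -dox library, and both calls held under all 15 alternatives. PPP1R13B, or ASPP1, a partner of p53, fell by a smaller amount (-0.30, SE 0.09, adjusted p = 0.0089) and lost its call without +dox replicate 3 (-0.25, adjusted p = 0.079). PPP1R8, the nuclear inhibitor NIPP1, stood at 129, 140.2 and 128 CPM without and 132 and 133 CPM with doxycycline and did not pass (0.00, SE 0.05, adjusted p = 0.97), although library size alone gave -0.18, adjusted p = 0.012.

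Further PP1 partners did not pass. PPP1R21 had -0.14, SE 0.06, adjusted p = 0.077, PPP1R16B had -0.02, SE 0.10, adjusted p = 0.88, and PPP1RL, placed here by its symbol and the highest of these genes per kb of span at baseline (16.7 CPM per kb), had 0.14, SE 0.06, adjusted p = 0.087. PPP1RL was called higher without -dox replicate 3 (0.20, adjusted p = 0.0048) and with upper quartile scaling (0.17, adjusted p = 0.043). PPP1R21 was called lower with library size alone (-0.33, adjusted p = 0.00041) and without a filter (-0.18, adjusted p = 0.039). The glycogen-targeting subunit genes PPP1R3B and PPP1R3C, the inhibitor genes PPP1R1B and PPP1R17, and PPP1R36 and PPP1R42 were too low to be tested, with at most 14 counts in any library.

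PP2A regulatory genes fell in 5 of 8 tested cases and rose in 1, so 75.0% were called and 62.5% lower, against 46.3% and 23.7% of all features. Most of them stand at 20 CPM or more, where 57.2% of all features were called and 30.5% were lower. The B55 family, which shapes the exit from mitosis, was represented by PPP2R2A, PPP2R2D and PPP2R2C. PPP2R2C stood at 91.7, 80.9 and 74 CPM without and 59.8 and 64.1 CPM with doxycycline (-0.42, SE 0.08, adjusted p = 0.00058), PPP2R2A at 163, 169 and 168 CPM without and 144 and 148 CPM with doxycycline (-0.19, SE 0.06, adjusted p = 0.013), and PPP2R2D at 119, 120.4 and 111 CPM without and 103 and 104 CPM with doxycycline (-0.18, SE 0.05, adjusted p = 0.015). All 3 were lower in +dox with no overlap, but the smaller changes were less stable. PPP2R2A lost its call without +dox replicate 1 (-0.18, adjusted p = 0.056), and PPP2R2D without -dox replicate 2 (-0.15, adjusted p = 0.058), without +dox replicate 1 (-0.17, adjusted p = 0.096), without +dox replicate 3 (-0.18, adjusted p = 0.082) and by DESeq2 (-0.17, adjusted p = 0.052). PPP2R2B, a B55 gene best known from brain, stood at 0.53, 0.819 and 0.165 CPM without and 0.843 and 1.03 CPM with doxycycline and did not pass (0.82, SE 0.56, adjusted p = 0.25).

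In the B56 family 1 gene rose and 1 fell. PPP2R5A, or B56 alpha, stood at 145, 143 and 146 CPM in the -dox libraries and 175 and 179 CPM in the +dox libraries and rose (log2 fold change of 0.29 with an SE of 0.06 and adjusted p = 0.00055). PPP2R5C, or B56 gamma, stood at 109, 113 and 122 CPM in the -dox libraries and 87.1 and 82.1 CPM in the +dox libraries and fell (log2 fold change of -0.43 with an SE of 0.06 and adjusted p = 2.8e-05). The +dox libraries thus lie above the -dox range for the first gene and below it for the second, and B56 subunits are known for holding PP2A at centromeres. PPP2R5A overlaps TMEM206, which did not pass (0.03, adjusted p = 0.85), and its next neighbour, DTL, rose by a like amount (0.27, adjusted p = 0.00073). The unnamed feature XM_421371.3, 5.19 kb after PPP2R5C, fell further than PPP2R5C itself (-1.10, adjusted p = 5.7e-12). With library size alone PPP2R5A lost its call (0.11, adjusted p = 0.13). PPP2R3B, a calcium-binding B'' subunit, was low and fell, from 12.3 ± 1.35 to 8.09 ± 0.711 CPM (-0.62, SE 0.17, adjusted p = 0.0064). PPP2R3C, another B'' gene, did not pass (0.08, SE 0.10, adjusted p = 0.53).

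Among the regulators of the other enzymes, 2 of the 3 tested PP4 genes fell, and neither the tested calcineurin nor the tested PP6 gene passed. PPP4R2 stood at 119, 117 and 118 CPM in the -dox libraries and 89.1 and 77.1 CPM in the +dox libraries (log2 fold change of -0.50 with an SE of 0.06 and adjusted p = 6.4e-06), and PPP4R3A at 207, 221 and 208 CPM without and 166 and 169 CPM with doxycycline (-0.34, SE 0.06, adjusted p = 0.00044). These encode the core regulatory and a targeting subunit of PP4, which acts in DNA repair and at centrosomes, and both calls held under all 15 alternatives. PPP4R3B, the relative of PPP4R3A and the regulatory gene with the most counts, was at 336, 327 and 316 CPM without and 306 and 284 CPM with doxycycline and did not pass (-0.15, SE 0.06, adjusted p = 0.069). It passed as lower by DESeq2 (-0.14, adjusted p = 0.037), without +dox replicate 1 (-0.20, adjusted p = 0.019), without a filter (-0.18, adjusted p = 0.037) and with library size alone (-0.33, adjusted p = 0.00025), and it overlaps CFAP36. PPP3R1, the calcium-sensing B subunit of calcineurin, differed by -0.02 (SE 0.05, adjusted p = 0.8), and the PP6 subunit gene PPP6R3 by -0.06 (SE 0.06, adjusted p = 0.46). Both overlap unnamed features, and both were called lower with library size alone (-0.20, adjusted p = 0.0043 and -0.24, adjusted p = 0.004).

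Ratios of related genes within a library do not depend on how libraries are scaled, and 8 pairs, chosen after their values were seen, were compared with an exact two-sided permutation test over the 5 libraries. With 10 arrangements the smallest possible p is 0.10, so no pair could pass. The log2 ratio of PPP2R5A to PPP2R5C was 0.41, 0.35 and 0.27 in the -dox libraries and 1.01 and 1.13 in the +dox libraries, a difference of 0.72. For PPP1CC to PPP1CB it was -0.46, -0.32 and -0.38 in the -dox libraries and -1.10 and -0.88 in the +dox libraries, a difference of -0.60. In both pairs the groups do not overlap, and each difference is several times the spread within a group.

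PTPN14 to PTPN21 gave 2.97, 3.11 and 3.16 in the -dox libraries and 2.49 and 2.55 in the +dox libraries, a difference of -0.56, and PTPN6 to PTPN11 gave -0.07, -0.06 and -0.08 in the -dox libraries and -0.39 and -0.28 in the +dox libraries, a difference of -0.27. Smaller gaps were seen for PPP4R3A to PPP4R3B (-0.19), PPP2CB to PPP2CA (0.18) and PTPN1 to PTPN2 (-0.09), all without overlap. How often ratios of other gene pairs do not overlap was not computed. Of single features at a mean of 20 CPM or more, the level of all genes in these pairs, 72.3% do not. Only PPP2R2A to PPP2R2D overlapped, with 0.45, 0.49 and 0.60 in the -dox libraries and 0.49 and 0.51 in the +dox libraries and a difference of -0.02 (exact permutation p = 0.90). The other 7 pairs had an exact permutation p of 0.10, the smallest possible, and 0.114 after Benjamini-Hochberg adjustment over the 8 pairs. No pair could pass, and the pairs were chosen after their values were seen. No conclusion is therefore drawn from these p-values or from the lack of overlap.

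**Figure D4:**
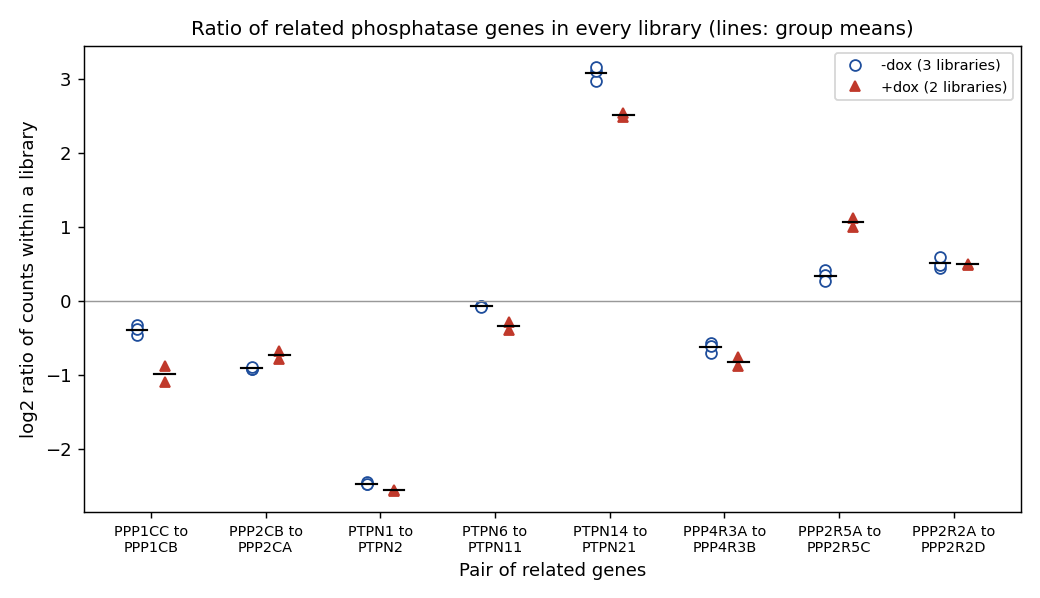
Log2 ratio of the counts of 2 related phosphatase genes within each library (y axis) for 8 pairs (x axis), with circles for the 3 -dox libraries, triangles for the 2 +dox libraries and lines for group means. The ratio of PPP2R5A to PPP2R5C is higher in +dox by 0.72, that of PPP1CC to PPP1CB differs by -0.60, and that of PPP2R2A to PPP2R2D overlaps.

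The authors' deposited table of called transcripts lists 19 members, 3 higher and 16 lower. The sign of its log2 fold changes was that of +dox minus -dox in all 3479 tested features it lists, which sets its direction. Of the 19, 18 were called here too, and the other is DUSP26. In the authors' deposited table DUSP23 stands at 1.76, PTPRR at 1.72, PTPRC at -1.07 and PPP1CC at -0.82. The same libraries underlie both, so this is no independent evidence.

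Phosphatases outside the symbol rule, and regulators with other names, were counted over whole lists of related genes. Most genes in these lists stand at 20 CPM or more, where 57.2% of all features were called. PP2C-type genes gave 1 rise and 3 falls among 11 tested (36.4% called, against 46.3% of all features; median log2 fold change -0.14), with TAB1, a catalytically inactive relative, rising (0.62, SE 0.10, adjusted p = 0.00015) and PPM1F (-0.38, SE 0.09, adjusted p = 0.002) and PPM1L (-0.38, SE 0.11, adjusted p = 0.014) falling. Other tyrosine-type and aspartate-based phosphatases rose in 2 and fell in 9 of 23 tested cases (47.8% called, median -0.19). CDC25A, which activates cyclin-dependent kinases, rose (0.37, SE 0.05, adjusted p = 4.3e-05), while CDC14A (-0.72, SE 0.10, adjusted p = 1.9e-05) and PTP4A1 (-0.35, SE 0.06, adjusted p = 0.00019) fell. CDC25A overlaps a microRNA gene and PTP4A1 an unnamed feature.

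Regulators of the serine/threonine enzymes that carry other names rose in 7 and fell in 6 of 23 tested cases (median 0.03). Thus 56.5% were called, 30.4% higher and 26.1% lower. These shares are near those of all features at 20 CPM or more, where 57.2% were called, 26.7% higher and 30.5% lower. ANKRD44, an ankyrin subunit of PP6, fell from 276 ± 5.62 to 145 ± 7.97 CPM (-0.93, SE 0.07, adjusted p = 1.7e-08). CDCA2, or Repo-Man, which brings PP1 gamma to anaphase chromatin, rose (0.36, SE 0.06, adjusted p = 0.00027), as did BOD1, an inhibitor of PP2A-B56 at kinetochores (0.36, SE 0.06, adjusted p = 0.00029). Of the genes these act with, PPP1CC, the catalytic partner of CDCA2, fell, and of the B56 genes PPP2R5A rose and PPP2R5C fell, as given above.

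The MAP kinases, on which the MAP kinase phosphatases act, and the kinases above them gave 1 rise and 4 falls among 9 tested (55.6% called, against 46.3% of all features; median -0.23). Most of the tested ones stand at 20 CPM or more, where 57.2% of all features were called. MAP2K3 (-0.67, SE 0.06, adjusted p = 1.5e-07) and MAPK14, the p38 alpha kinase (-0.44, SE 0.07, adjusted p = 5.1e-05), fell, and MAP2K1, or MEK1, rose (0.34, SE 0.07, adjusted p = 0.00059). Of genes known to respond to ERK signalling 3 rose and 3 fell among 8 tested (75.0% called, median 0.06; the same 46.3% of all features applies). ETV1 (2.44, SE 0.31, adjusted p = 8.7e-06) and JUN (1.03, SE 0.14, adjusted p = 1.9e-05) rose, and SPRY2, a feedback inhibitor, fell (-0.91, SE 0.20, adjusted p = 0.0016). The 13 ERK-responsive genes with a row include 2, SPRY3 and SPRY4, at the smallest value of the files in all 5 libraries.

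The members are spread over the genome, and 2 pairs of them lie within 500 kb of each other. These are PPP1CC and PTPN11 on chromosome 15, 371 kb apart, which both fell, and DUSP4 and PPP1R3B on chromosome 4, 175 kb apart. Each of the 27 called members has a nearest tested feature on either side, and of these 54 neighbours 9 were called in the member's direction, 19 in the opposite direction and 26 did not pass. Of all tested features 46.3% were called, 22.6% higher and 23.7% lower. In 9 members the span overlaps another feature. How reads in such overlaps were assigned is not given, so they may count for either feature. Members were long, with a median span of 26.4 kb against 11.4 kb over all features, and the tyrosine phosphatase genes had a median span of 50.7 kb against 6.46 kb for the dual-specificity class.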

How the data were processed

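The 5 deposited files hold whole-number counts per RefSeq transcript on galGal4, per the file headers and the labels. Per the submitters' processing notes the tools were FastQC, Bowtie, edgeR 3.2.3 and TopHat2 2.0.8b, listed without roles. Read counter and strand setting: not given in the sources used here. Of 17036 rows, 8905 received a symbol from RefSeq's GRCg7b table by accession without version; printed coordinates are the files'. Rows sharing an interval or identifier were reduced to 16143 features. No count was 0 and the smallest was 1. The deposited table of the authors' comparison gives log2 fold changes and log2 mean CPM, p-values and a likelihood ratio score, per the file headers; the score was not used.

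The count test was glmQLFit and glmQLFTest after filterByExpr and TMM (edgeR 4.0.16, R 4.3.3), without covariates over 10079 features, at an adjusted p under 0.05. Total counts were 22533003, 14890956 and 12311777 in the -dox and 13501033 and 12199522 in the +dox libraries. The SE is the log2 fold change over the square root of F. Replicate pairs differed beyond sampling noise. The chi-square per degree of freedom was 3.28 to 5.09 for the -dox pairs and 11.0 for the +dox pair. The fit was tested on simulated counts for +dox against -dox, with 200 features changed and 9949 left by the filter. Of the changed features left, 91.9% of those moved by 1 log2 unit were called, and 72.7% of those moved by 0.5. Of the calls, 6.32% were false. In the data 46.3% of tested features were called, far more than were changed in the simulation, so these rates need not hold there. Alternatives were other scalings, filters, tools (DESeq2 1.42.0, edgeR's exact test), feature sets, a replicate block and leaving out each library. Without coding lengths, levels between genes were compared per kb of genomic span. Span includes introns, so these orders do not rank RNA levels per length of transcript.

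Members and lists were chosen with earlier results of these data known. Each class names up to 6 tested members of lowest p, members changed at least 2-fold, and the 3 of highest baseline level; each other list names up to 3 of lowest p, and markers, neighbours and further members were named after their values were seen. One further marker list is not reported here.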

Additional observations from a re-analysis of the deposited data

How the results depend on the processing

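Of the 27 calls, 16 held in every alternative, 2 rises (DUSP23 and PTPRR) and 14 falls, and no called member changed sign. Library size alone moved the counts most. All features went from 2281 to 1272 higher and from 2387 to 4119 lower. Members went from 8 to 2 higher, dual-specificity genes to 1 higher and 2 lower, tyrosine genes to 1 higher, and catalytic and regulatory genes to 0 higher. By edgeR's exact test 4 dual-specificity genes were higher. Regulatory genes higher were 2 with upper quartile scaling and 0 without overlapping features, a setting that leaves out PPP2R5A because it overlaps TMEM206. When each library was left out the number was 1 to 2, and that change comes from PPP1RL without -dox replicate 3. The falls of members numbered 15 to 19 when each library was left out.

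Sign changes were limited to members that did not pass. DUSP10 came to 0.0012 with RLE scaling, 0.0235 with upper quartile scaling, 0.00070 with a filter at 1 CPM, 0.0013 by DESeq2 and 0.011 with the block. Upper quartile scaling gave 0.0071 for PPP1R16B, 0.0096 for PPP3R1 and 0.00024 for PTPN21. PPP1R8 came to -0.18 with library size alone and -0.034 without a filter, and library size alone gave -0.042 for PPP1RL, -0.088 for PPP2CA and -0.10 for PPP2R3C. With each library left out the ranges were -0.033 to 0.027 for DUSP10, -2.83 to 0.36 for DUSP21, -0.15 to 0.078 for DUSP4, -0.16 to 0.10 for PPP1R16B, -0.020 to 0.047 for PPP1R8, -0.082 to 0.23 for PPP2R3C, -0.036 to 0.0023 for PPP3R1 and -0.063 to 0.050 for PTPN21. The cause of these changes was not tested.

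Deviations of same-numbered libraries from their group means correlated at -0.01 (replicate 1) and -0.03 (replicate 3) over features. With 2 +dox libraries the deviations of these mirror each other, so the correlations cannot show whether same-numbered libraries share a culture. With the replicate number as a block, 3856 features were called, 7 members were higher and 14 lower, and PPP1R16B came to 0.0555. There is no +dox replicate 2, so under the block -dox replicate 2 adds nothing to the contrast, which rests on replicates 1 and 3. The block removed the calls of PPP1R13B, PPP2R2A, PPP2R2D, PPP6C, PTPN11 and PTPRU, in addition to the losses given for these genes above. Per-length levels over coding length were not run.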
